A study of Canis lupus familiaris with 77 samples.

Results

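The duodenum is the first segment of the small intestine and the jejunum is the segment that follows it. Small-RNA libraries of the duodenum (5 samples) were compared with those of the jejunum (5 samples), 10 of the 76 libraries with values in a beagle dog miRNA atlas of 16 tissues. The libraries were chosen by their tissue label alone, without regard to any measured value. The samples came from untreated male beagles, which per the study's methods were 10 months old and were perfused with phosphate buffered saline before the organs were taken. All tissues were taken from 5 dogs, so that both segments share animals. The labels carry no dog number, and samples of the same dog could not be matched. All samples compared here were of this breed, sex and age.

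A miRNA is a short RNA that pairs with messenger RNAs and lowers their translation or stability, and many miRNAs are made mainly in certain cell types. In the wall of the small intestine, miR-192, miR-194 and miR-215 are abundant in the absorptive epithelium, and the miR-200 family (miR-200a, miR-200b, miR-200c, miR-141 and miR-429) is found in epithelia in general. miR-143 and miR-145 are made in smooth muscle and other mesenchymal cells, miR-142 and miR-150 in white blood cells, and miR-486 and miR-451 in red blood cell precursors. miR-10a, miR-10b and the miR-196 genes lie inside the HOX clusters, which set position along the body axis. In whole tissue, fewer cells of a type and less miRNA per cell cannot be told apart.

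The 10 libraries held 15868880 miRNA reads, from 442945 to 3219670 in duodenum and from 475283 to 3318297 in jejunum. Levels are given as RPM, the reads of a miRNA scaled to the miRNA reads of its library. A miRNA without a read could still have had up to 3 reads at 95% confidence, which is 0.904 to 6.77 RPM in these libraries and covers counting error only. Of 650 miRNAs in the table, 537 had a read in the 10 libraries, 267 had reads in all 10, and 249 passed the filter on low counts and were tested. The labelled tissue was read by miRNAs that define neighbouring organs. The pancreatic acinar miRNAs miR-216a, miR-216b and miR-217 (5 names, counting both arms) summed to at most 30.5 RPM in any of the 10 libraries against a median of 13874 RPM in pancreas, and the hepatocyte miRNA cfa-miR-122 stood at 0 to 5.77 RPM against a median of 22008 RPM in liver. cfa-miR-885, which is also abundant in liver, was not near 0: it was read at 142.2, 94.7, 5.77, 2.33 and 41.0 RPM in duodenum and at 98.2 to 248 RPM in jejunum against a median of 207.4 RPM in liver (log2 fold change -1.38, SE 0.719, adjusted p = 0.396, edgeR).

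The 5 duodenum libraries did not look alike. Duodenum replicates 1 and 2 resembled jejunum, with miR-192 as the most abundant miRNA, whereas in duodenum replicates 3, 4 and 5 miR-143 was the most abundant. The replicate numbers only name the samples. The mean Spearman correlation across all miRNAs was 0.875 ± 0.0370 (SD over 10 pairs) within duodenum, 0.931 ± 0.0137 (SD over 10 pairs) within jejunum and 0.889 ± 0.0457 (SD over 25 pairs) between the segments. Pairs share libraries, and these values are descriptions. By mean correlation with the samples of each tissue, the nearest tissue was jejunum for all 5 jejunum libraries and for duodenum replicates 1 (0.927) and 2 (0.945), colon for duodenum replicates 3 (0.901) and 5 (0.912), and sciatic nerve for duodenum replicate 4 (0.882). No duodenum library had duodenum as its nearest tissue. Values below are therefore given by library or as a range, and the log2 fold changes that rest most on duodenum replicates 3, 4 and 5 are also given without them. Leaving them out was chosen after seeing the data.

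No miRNA passed an adjusted p of 0.05 in either direction (0 of 249 tested, 0% called) by edgeR's quasi-likelihood test with Benjamini-Hochberg adjustment. At an unadjusted p below 0.05 there were 37 miRNAs (14.9%), of which 33 (13.3%) were higher in duodenum and 4 (1.61%) higher in jejunum. The lowest adjusted p was 0.111. RPM values that did not overlap between the groups were seen for 0 miRNAs higher in duodenum (0%) and for 2 miRNAs higher in jejunum (0.803%). The 2 were hsa-miR-10a-3p and cfa-miR-454. The median log2 fold change over all tested miRNAs, duodenum over jejunum, was -0.11, and it was -0.34 when the deposited totals were the library sizes. The fold changes below are to be read against that shift.

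The count of 0 depended on the test and on the libraries. DESeq2 called 25 miRNAs, 24 of them higher in duodenum, and left 35 without an adjusted p. A fit that shared its estimate of spread with ileum and colon called 22 (21 higher in duodenum), a fit over all tissues called 36 (35 higher in duodenum), and limma-voom with sample weights called 32 (18 higher in duodenum). Without duodenum replicate 1 edgeR called 11, all higher in duodenum, and without duodenum replicate 2 it called 25, of which 24 were higher in duodenum. Without duodenum replicates 3, 4 and 5 it called 0 of 249, with 5 at an unadjusted p below 0.05. These settings together called 51 miRNAs at least once, and the 6 that made calls shared 10 of them. The shared 10 were the 10 with the lowest p among miRNAs higher in duodenum: cfa-miR-486, hsa-miR-125b-2-3p, cfa-miR-411, cfa-miR-381, cfa-miR-99a, cfa-miR-127, hsa-miR-30a-3p, cfa-miR-410, cfa-miR-380 and cfa-miR-10b.

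**Figure D1:**
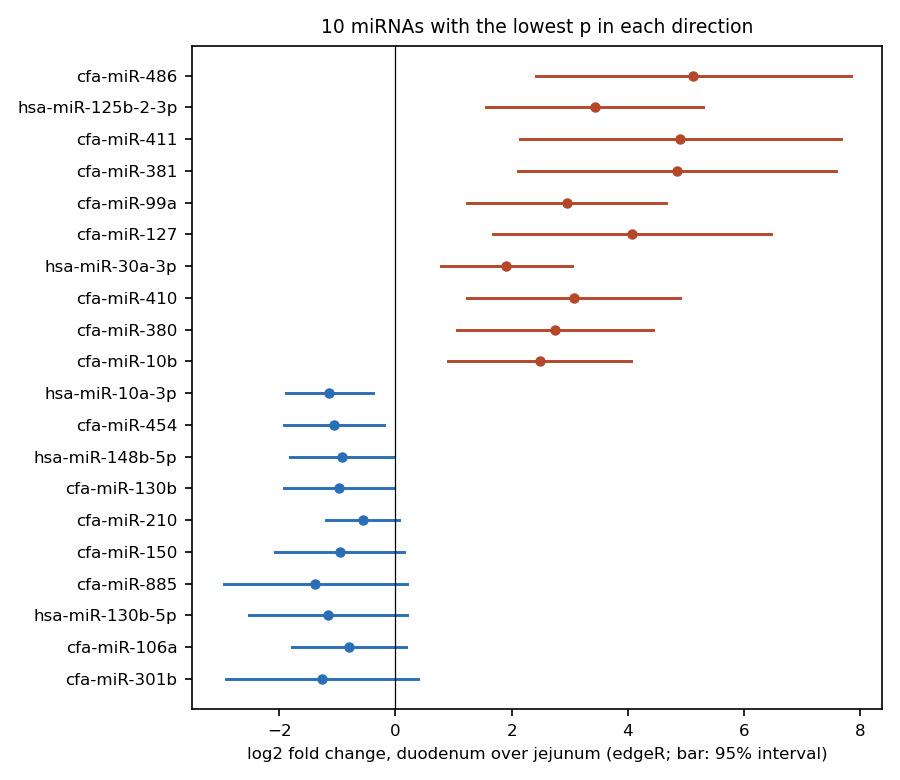
Log2 fold change, duodenum over jejunum (x axis), of the 10 miRNAs with the lowest p in each direction, with the 95% interval of the edgeR fit (bars) from 5 libraries a group. None passed an adjusted p of 0.05. The miRNAs higher in duodenum have estimates further from 0 than those higher in jejunum, and mostly wider intervals. Exceptions include the narrow interval of hsa-miR-30a-3p (0.78 to 3.04) and the wide one of cfa-miR-301b (-2.92 to 0.38).

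The epithelial miRNAs showed the split most plainly. cfa-miR-192 was the most abundant miRNA of the jejunum, where it stood at 277959, 398717, 321726, 224693 and 302243 RPM in replicates 1 to 5. In duodenum it stood at 267076 and 385247 RPM in replicates 1 and 2, and at 22363, 5189 and 77588 RPM in replicates 3, 4 and 5. Duodenum replicates 1 and 2 lay inside the jejunum range and the other 3 below it, so that the highest duodenum library exceeded the lowest 74.3-fold, against 1.77-fold in jejunum.

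cfa-miR-215, which has the same seed as miR-192, was read at 37817, 91939, 424.1, 480 and 6982 RPM in duodenum and at 43168 to 89467 RPM in jejunum. cfa-miR-194, whose gene lies beside that of miR-215, was read at 23071, 43838, 691, 307 and 4054 RPM in duodenum and at 23077 to 39122 RPM in jejunum. In both, duodenum replicates 3, 4 and 5 were far below every jejunum library, replicate 1 was just below the lowest of them and replicate 2 was just above the highest. The log2 fold changes were -1.04 (SE 0.797, adjusted p = 0.513, edgeR) for miR-192, -1.21 (SE 1.10, adjusted p = 0.559) for miR-215 and -1.06 (SE 0.966, adjusted p = 0.561) for miR-194, and without duodenum replicates 3, 4 and 5 they were 0.0083, 0.018 and 0.14.

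**Figure D2:**
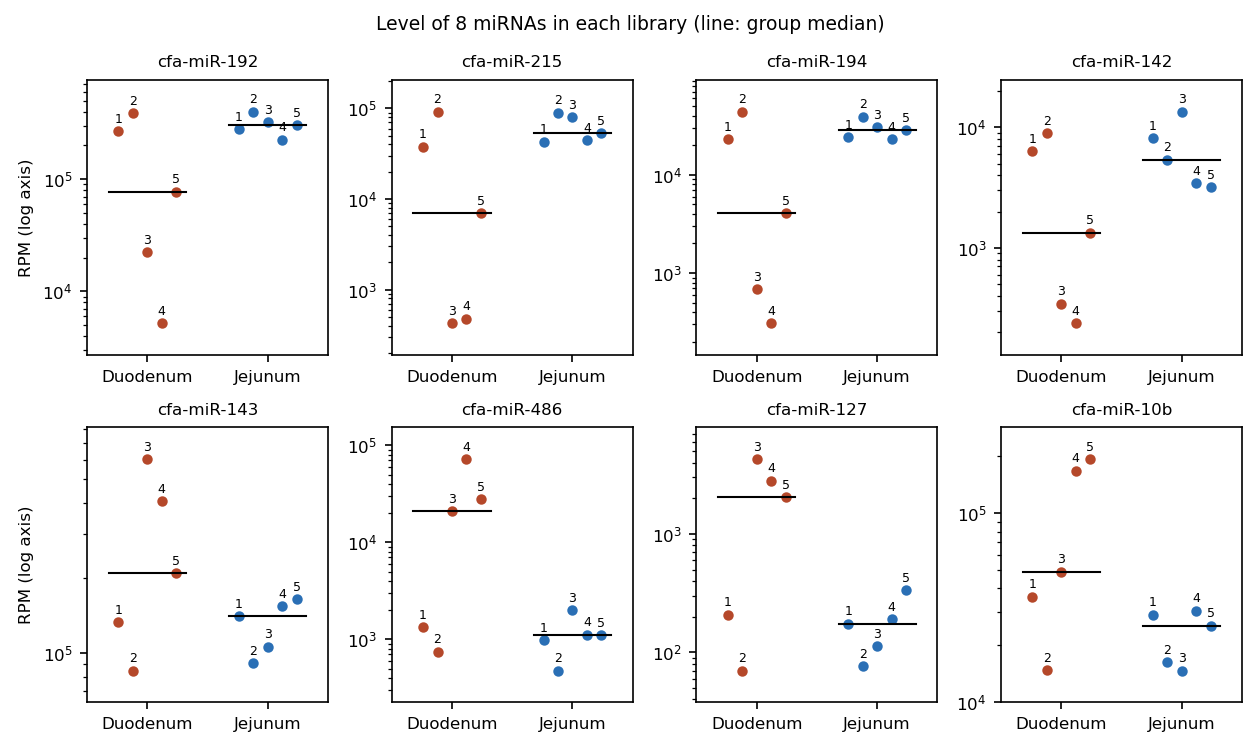
RPM (log axis) of 8 miRNAs in each of the 5 duodenum and 5 jejunum libraries, with replicate numbers beside the points and the group median as a line. In duodenum, replicates 3, 4 and 5 are the lowest for cfa-miR-192, cfa-miR-215, cfa-miR-194 and cfa-miR-142 and the highest for cfa-miR-143, cfa-miR-486, cfa-miR-127 and cfa-miR-10b, while replicates 1 and 2 lie near or within the jejunum values.

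Other epithelial miRNAs did not follow miR-192 in every library. hsa-miR-200b-3p was read at 2025, 1019, 1479, 44.3 and 952 RPM in duodenum and at 978 to 1831 RPM in jejunum. hsa-miR-200a-3p was read at 912, 692, 540, 17.9 and 339 RPM in duodenum and at 508 to 677 RPM in jejunum. Duodenum replicate 3 thus lay within the jejunum range for both while its miR-192 was below it, and duodenum replicate 4 was low in all of them. cfa-miR-429 stood at 490, 440, 241, 9.33 and 224 RPM in duodenum and at 394 to 462 RPM in jejunum.

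cfa-miR-375, which is made in enteroendocrine cells and in pancreatic islets, was read at 5272, 2342, 9407, 239 and 6689 RPM in duodenum and at 1389 to 6019 RPM in jejunum. Its highest and its lowest value both came from duodenum, in replicates 3 and 4, and its log2 fold change was 0.98 (SE 0.735, adjusted p = 0.512, edgeR). cfa-miR-182, from a cluster made in sensory and neuroendocrine cells, was read at 1671, 1095, 2714, 176 and 4069 RPM in duodenum and at 1021 to 2225 RPM in jejunum. For both miRNAs duodenum replicates 3 and 5 were above the jejunum range and replicate 4 below it. cfa-miR-203, a miRNA of differentiating epithelium, was instead low in all 3 libraries, at 876, 1397, 33.2, 17.1 and 280 RPM in duodenum against 786 to 1184 RPM in jejunum. Over all tested miRNAs 45% of log2 fold changes were above 0 and 55% below. Of the 12 tested names of the intestinal epithelium list, 1 was above 0 and 11 below it, with a median of -0.68 against -0.11 over all tested miRNAs, and 0 had an unadjusted p below 0.05 (background 14.9%).

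The list summed to 337164, 542602, 27258, 6245 and 92526 RPM in duodenum replicates 1 to 5 and to between 301405 and 552691 RPM in jejunum. When the log2 of this sum was added to the edgeR fit as a covariate, an alternative chosen after seeing the data, 0 of 249 miRNAs were called and 4 had an unadjusted p below 0.05.

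Of the smooth muscle miRNAs, cfa-miR-143 ran the other way most plainly. cfa-miR-143 was read at 132689, 84748, 604122, 408300 and 209375 RPM in duodenum and at 140537, 90656, 105962, 154231 and 164349 RPM in jejunum. Duodenum replicates 3, 4 and 5 were above every jejunum library and duodenum replicate 2 was below them all. The log2 fold change was 1.75 (SE 0.656, adjusted p = 0.215, edgeR) and turned to -0.39 without the 3 libraries. cfa-miR-145, from the same transcript, was read at 3951, 1129, 11334, 4623 and 3976 RPM in duodenum and at 1115 to 6705 RPM in jejunum, and only duodenum replicate 3 lay outside the jejunum range. All 5 tested names of the smooth muscle list had a log2 fold change above 0, with a median of 1.16, and 1 of them had an unadjusted p below 0.05 (background for higher in duodenum 13.3%). The smallest was that of cfa-miR-490 (0.082), whose mean was 23.9 RPM in duodenum and 31.6 RPM in jejunum. hsa-miR-143-5p (0.39) also had a lower mean RPM in duodenum, 9.95 against 11.4.

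The striated muscle miRNA cfa-miR-133a stood at 415, 204.7, 1002, 593 and 186.1 RPM in duodenum and at 202.8 to 557 RPM in jejunum. The summed striated muscle list stayed at 205.04 to 1063 RPM in duodenum against a median of 92211 RPM in heart. cfa-miR-126, which is made in endothelium, was read at 5181 to 11877 RPM in duodenum and at 5256 to 8971 RPM in jejunum, with a log2 fold change of 0.70 (SE 0.280, adjusted p = 0.257, edgeR). The fibroblast miRNA cfa-miR-199 was read at 5258, 2904, 1420, 1194 and 1536 RPM in duodenum and at 2731 to 5805 RPM in jejunum, so that it was low in the libraries in which miR-143 was high. cfa-miR-214, of the same list, went the other way, at a mean of 157 RPM in duodenum and 151 RPM in jejunum (log2 fold change 0.37, SE 0.303). Of the 5 tested fibroblast names, 1 was above 0 and 4 below it.

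cfa-miR-486 had the largest log2 fold change of all miRNAs tested. It was read at 1327, 747, 20846, 72446 and 27993 RPM in duodenum and at 985, 475, 2005, 1119 and 1102 RPM in jejunum. Duodenum replicates 3, 4 and 5 were above every jejunum library and replicates 1 and 2 were within the jejunum range. The log2 fold change was 5.13 (SE 1.23, adjusted p = 0.111, edgeR), and -0.24 without the 3 libraries.

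The other erythroid miRNAs gave smaller differences. cfa-miR-451, which matures through cleavage by Argonaute 2, was read at 1386, 941, 2035, 1990 and 5842 RPM in duodenum and at 438 to 1428 RPM in jejunum (log2 fold change 1.57, SE 0.518, adjusted p = 0.148, edgeR). Its log2 fold change was 0.0077 without duodenum replicates 3, 4 and 5. cfa-miR-144, its partner in the same transcript, was read at 54.2, 44.4, 16.6, 11.7 and 49.4 RPM in duodenum and at 16.9 to 56.9 RPM in jejunum. The ratio of miR-486 to miR-451 was 0.958, 0.793, 10.2, 36.4 and 4.79 in duodenum and 0.781 to 1.4998 in jejunum. It was 1.59 to 2.14 in bone marrow, 3.63 to 14.4 in plasma, and 67.5 and 117 in the 2 sciatic nerve libraries. High ratios were not limited to nerve: the ratio was 15.4 to 729 in heart, 16.2 to 234 in skeletal muscle and 12.4 to 119 in brain. Both miRNAs are carried in blood, and whether residual blood took part in the difference was not tested.

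The white blood cell miRNAs were mixed. miR-142 was low in duodenum replicates 3, 4 and 5, and miR-150 and miR-146a were low in replicates 3 and 4. cfa-miR-142 was read at 6346, 8984, 343, 236 and 1335 RPM in duodenum and at 8134, 5401, 13501, 3444 and 3206 RPM in jejunum. cfa-miR-150, a miRNA of mature lymphocytes, was read at 498.9, 289, 72.8, 26.4 and 267 RPM in duodenum and at 478, 228, 712, 522 and 455 RPM in jejunum. For miR-142 duodenum replicates 3, 4 and 5 were below every jejunum library, and for miR-150 replicates 3 and 4 were. cfa-miR-146a, which is induced by NF-kappaB signalling, was read at 4156, 3697, 1279, 553 and 2845 RPM in duodenum and at 2836 to 3758 RPM in jejunum. cfa-miR-155, which is induced in activated lymphocytes and macrophages, was read at 404.11, 355.3, 144.96, 187.4 and 455.3 RPM in duodenum and at 253.9 to 1062.6 RPM in jejunum, with a log2 fold change of -0.56 (SE 0.370, adjusted p = 0.491, edgeR), so that its highest duodenum library was replicate 5. Of the 6 tested names of the leukocyte list, 5 had a log2 fold change below 0 and 0 an unadjusted p below 0.05. The name above 0 was cfa-miR-146b, at 177.7 to 625.6 RPM in duodenum and 149.8 to 503.8 RPM in jejunum (log2 fold change 0.62).

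cfa-miR-21, which is abundant in many growing and inflamed tissues, was low in the same libraries and was read at 41624, 42483, 5620, 1583 and 10153 RPM in duodenum and at 27952 to 43498 RPM in jejunum. cfa-miR-31 was read at 1366, 920, 378, 24.1 and 447 RPM in duodenum and at 788 to 994 RPM in jejunum. The largest spread in duodenum was that of cfa-miR-802, a miRNA of pancreas, liver and small intestine, at 648, 619, 0, 1.56 and 55.7 RPM in duodenum and at 384 to 558 RPM in jejunum. It is named for its spread after its values were seen.

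The imprinted DLK1-DIO3 cluster is a large array of miRNA genes expressed from the maternal chromosome, most strongly in brain. cfa-miR-127 was read at 207.7, 69.9, 4299, 2817 and 2043 RPM in duodenum and at 175, 76.4, 113, 190 and 335 RPM in jejunum (log2 fold change 4.08, SE 1.09, adjusted p = 0.111, edgeR). cfa-miR-411 was read at 47.4, 9.32, 1590, 809 and 562 RPM in duodenum and at 9.42 to 53.8 RPM in jejunum (log2 fold change 4.90, SE 1.26). cfa-miR-381 was read at 22.6, 7.14, 1098, 376.4 and 505 RPM in duodenum and at 7.94 to 32.9 RPM in jejunum (log2 fold change 4.85, SE 1.25). In all 3, duodenum replicates 3, 4 and 5 exceeded every jejunum library and replicates 1 and 2 did not.

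cfa-miR-410 gave 13.5, 13.7, 159, 139 and 116 RPM in duodenum and 10.5 to 24.1 RPM in jejunum. cfa-miR-380 gave 6.77, 4.97, 57.0, 41.2 and 48.4 RPM in duodenum and 3.97 to 8.51 RPM in jejunum. cfa-miR-889 gave 13.5, 4.35, 65.6, 38.9 and 70.5 RPM in duodenum and 2.10 to 19.3 RPM in jejunum. Of 51 names of the cluster with a read in the 10 libraries, 7 passed the filter on low counts, and since they could pass it through the duodenum libraries in which they are high, their direction is a description. All 7 had a log2 fold change above 0 (2.34 to 4.90), and all 7 an unadjusted p below 0.05 where 13.3% of all tested miRNAs did in that direction. The cluster summed to 336, 118, 7485, 4341 and 3508 RPM in duodenum and to 120 to 495.7 RPM in jejunum, and its median in brain was 76375 RPM.

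The list of miRNAs known from neural cells (miR-9, miR-124, miR-128 and others) summed to 245 to 479 RPM in duodenum and to 266 to 387 RPM in jejunum, against a median of 77191 RPM in brain. cfa-miR-338, which is abundant in Schwann cells and oligodendrocytes, was read at 61.0, 19.6, 44.7, 56.8 and 83.1 RPM in duodenum, at 15.4 to 61.0 RPM in jejunum and at a median of 1811 RPM in sciatic nerve. Its log2 fold change was 1.13 (SE 0.463, unadjusted p = 0.0331, adjusted p = 0.266, edgeR), and the part of nerve in these values was not tested.

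The miR-99, miR-100 and miR-125 families were also highest in duodenum replicates 3, 4 and 5. cfa-miR-99a was read at 205.4, 68.3, 843, 1244 and 919 RPM in duodenum and at 63.5 to 169 RPM in jejunum (log2 fold change 2.95, SE 0.780, adjusted p = 0.111, edgeR). hsa-miR-125b-2-3p, the passenger strand of a miR-125b copy, was read at 72.2, 23.3, 330, 609 and 364 RPM in duodenum and at 22.3 to 51.8 RPM in jejunum (log2 fold change 3.43, SE 0.850, and 0.017 without duodenum replicates 3, 4 and 5). cfa-miR-125b was read at 257, 59.3, 1012, 1016 and 689 RPM in duodenum and at 44.1 to 221.8 RPM in jejunum. cfa-let-7c, whose gene lies beside that of miR-125b-2, was read at 1312, 480, 1496, 2637 and 4306 RPM in duodenum and at 392 to 1048 RPM in jejunum (log2 fold change 1.93, and 0.14 without the 3 libraries). For these 4 miRNAs duodenum replicate 1 also lay above every jejunum library on the RPM scale, and replicate 2 lay within the jejunum range. All 6 tested names of the families had a log2 fold change above 0 (median 2.37) and all 6 an unadjusted p below 0.05 (background 13.3%). The let-7 family as a whole had 7 of 10 names above 0, with a median of 0.17.

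In the miR-30 family, which is high in kidney, heart and other well differentiated tissues, the 3 of 10 tested names with an unadjusted p below 0.05 (background 13.3%) were those of the miR-30a and miR-30c-2 locus. hsa-miR-30a-3p was read at 322.8, 213, 375.03, 865 and 875 RPM in duodenum and at 120 to 244 RPM in jejunum (log2 fold change 1.91, SE 0.514, adjusted p = 0.111, edgeR). Without duodenum replicates 3, 4 and 5 its log2 fold change was 0.36. cfa-miR-30a was read at 14390, 9219, 16497, 19918 and 25551 RPM in duodenum and at 7364 to 12403 RPM in jejunum. For both arms 4 duodenum libraries were above every jejunum library on the RPM scale and replicate 2 was within the jejunum range. With the TMM factors of the test, 1.41 for duodenum replicate 1 and 1.06 for jejunum replicate 5, the former lay below the latter for both arms. cfa-miR-30d, from another locus, was read at 3632 to 6005 RPM in duodenum and at 3552 to 6797 RPM in jejunum, with a log2 fold change of 0.20 (SE 0.233).

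A further pair of miRNAs outside the lists, named after their values were seen, was also highest in duodenum replicates 3, 4 and 5. cfa-miR-193a was read at 4.52, 1.86, 39.7, 103 and 147.2 RPM in duodenum and at 2.98 to 12.9 RPM in jejunum, and cfa-miR-365, its neighbour in mammalian genomes, at 49.7, 22.4, 138, 149 and 128.3 RPM in duodenum and at 20.3 to 53.6 RPM in jejunum. Their log2 fold changes were 3.63 (SE 1.08) and 1.96 (SE 0.613), and they turned to -1.44 and -0.22 without duodenum replicates 3, 4 and 5. The other arm of miR-193a, hsa-miR-193a-3p, did not share this difference. It stood at a mean of 21.4 RPM in duodenum and 26.4 RPM in jejunum (log2 fold change -0.17, SE 0.519).

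**Figure D3:**
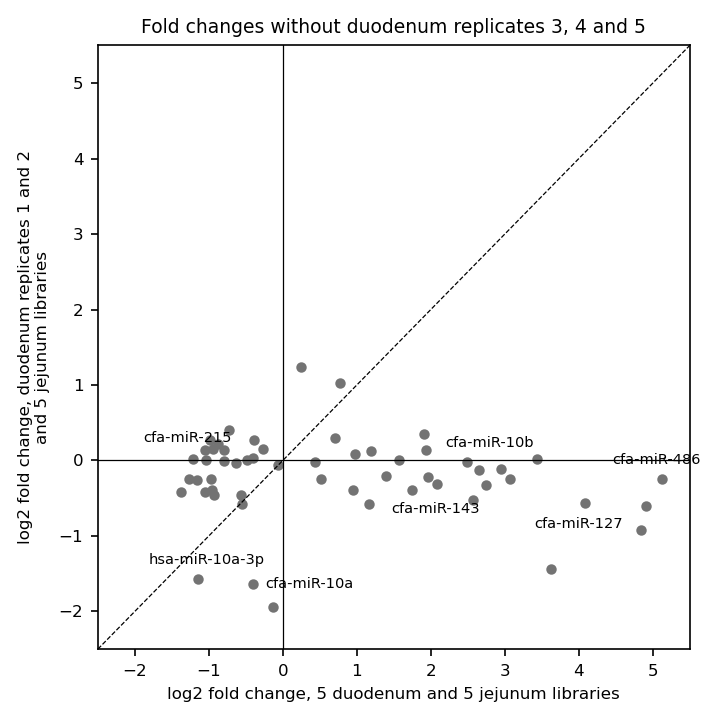
Log2 fold change, duodenum over jejunum, of 55 miRNAs with all 10 libraries (x axis) and without duodenum replicates 3, 4 and 5 (y axis). Shown are the 52 named miRNAs and the further ones with an unadjusted p below 0.05 in the y axis fit. Many were picked for a low p in 1 of the 2 fits, and the libraries left out were picked after their values were seen. The position of the points is therefore a description and no test. Most points lie near 0 on the y axis whatever their x value, and cfa-miR-486 goes from 5.13 to -0.24. Well below 0 on the y axis lie cfa-miR-10a (-1.63) and hsa-miR-10a-3p (-1.57), and also cfa-miR-138a (-1.94) and cfa-miR-193a (-1.44). cfa-miR-135a-5p (1.24) and hsa-miR-378e (1.03) lie well above it.

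The 2 arms of miR-10a did not follow this order, whereas miR-10b, from another HOX cluster, did. hsa-miR-10a-3p, the passenger strand of miR-10a, was read at 15.8, 8.70, 6.49, 13.2 and 14.7 RPM in duodenum and at 39.98, 30.3, 20.9, 40.4 and 28.1 RPM in jejunum. On the RPM scale every duodenum library was below every jejunum library. With the TMM factors of the test, 0.659 for duodenum replicate 4 and 1.19 for jejunum replicate 3, the former lay above the latter. The duodenum values rest on 7, 28, 9, 17 and 14 reads. Its log2 fold change was -1.14 (SE 0.341, adjusted p = 0.119, edgeR), and it was -1.57 without duodenum replicates 3, 4 and 5 and -1.52 with the epithelial level as a covariate.

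cfa-miR-10a, the guide strand, was read at 30914, 12512, 14991, 52601 and 61350 RPM in duodenum and at 65235, 45811, 47199, 69811 and 70213 RPM in jejunum. Duodenum replicates 1, 2 and 3 were below every jejunum library and replicates 4 and 5 were not. Its log2 fold change was -0.41 (SE 0.480, adjusted p = 0.651, edgeR) with all libraries, -1.63 (adjusted p = 0.110) without duodenum replicates 3, 4 and 5 and -1.34 (adjusted p = 0.995) with the epithelial level as a covariate. In the fit without the 3 libraries 5 of 249 miRNAs had an unadjusted p below 0.05. That share is smaller than the 0.05 such a threshold passes where nothing differs, and the names are a description. They were cfa-miR-10a, hsa-miR-10a-3p, cfa-miR-138a, cfa-miR-135a-5p and hsa-miR-378e. Of these, cfa-miR-138a was also lower in duodenum (log2 fold change -1.94), and cfa-miR-135a-5p (1.24) and hsa-miR-378e (1.03) were higher.

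cfa-miR-10b, which differs from miR-10a in the middle of the mature strand and lies in another HOX cluster, was read at 36113, 14735, 49081, 168299 and 193849 RPM in duodenum and at 29029, 16185, 14633, 30444 and 25307 RPM in jejunum. Only duodenum replicate 2 fell within the jejunum range. Its log2 fold change was 2.48 (SE 0.715, adjusted p = 0.119, edgeR), and -0.021 without duodenum replicates 3, 4 and 5.

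Within each library, miR-10b reads exceeded miR-10a reads in all 5 duodenum libraries and miR-10a reads exceeded miR-10b reads in all 5 jejunum libraries. The ratio of miR-10a to miR-10b was 0.856, 0.849, 0.305, 0.313 and 0.316 in duodenum and 2.25, 2.83, 3.23, 2.29 and 2.77 in jejunum. The ratio does not depend on the scaling of the libraries. It was 0.747 to 1.48 in ileum and 0.612 to 0.966 in colon, so that among these segments jejunum was the highest. The ratio was chosen after the values were seen and was given no test. The 2 mature miRNAs are close in sequence but differ in the middle of the strand. The authors aligned reads without mismatch and counted those that covered at least 70% of a locus. A counted read thus spanned the middle and could not match both miRNAs. Reads assigned to the wrong miRNA were not tested for.

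**Figure D4:**
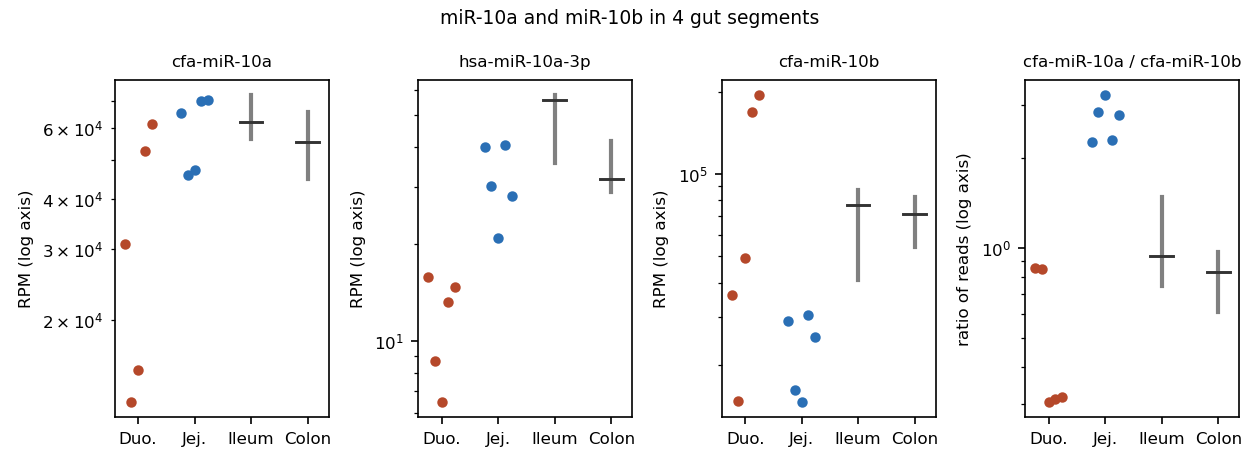
RPM (log axis) of cfa-miR-10a, hsa-miR-10a-3p and cfa-miR-10b and the ratio of miR-10a to miR-10b reads (log axis) in duodenum and jejunum (a point for each of the 5 libraries) and in ileum and colon (grey bar from the lowest to the highest library, line at the median). The duodenum ratios, 0.305 to 0.856, lie below the jejunum ratios, 2.25 to 3.23, without overlap.

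The other HOX miRNAs did not separate duodenum from jejunum. cfa-miR-196a stood at 0.311 to 4.52 RPM in duodenum and at 0 to 0.803 RPM in jejunum, and cfa-miR-196b at 0.621 to 3.15 and 0.496 to 3.27 RPM. Both were near the limit of 3 reads in these libraries, while their medians were 372 and 393 RPM in ileum and 217.1 and 558 RPM in colon.

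The other miRNAs with a low p and higher levels in jejunum were of moderate abundance. cfa-miR-454 was read at 18.1, 19.3, 4.33, 5.44 and 4.21 RPM in duodenum and at 21.04, 19.3, 24.2, 36.5 and 22.5 RPM in jejunum (log2 fold change -1.05, SE 0.391, adjusted p = 0.215, edgeR). The groups did not overlap in RPM, but duodenum replicate 2 and jejunum replicate 2 were nearly equal. With the TMM factors of the test, 1.01 for duodenum replicate 2 and 1.19 for jejunum replicate 1, the former lay above the latter. cfa-miR-130b, which shares its seed with miR-454, was read at 81.3, 71.1, 15.1, 14.8 and 18.9 RPM in duodenum and at 63.5 to 124.3 RPM in jejunum. hsa-miR-148b-5p was read at 24.8, 28.6, 9.38, 4.67 and 15.8 RPM in duodenum and at 25.2 to 63.5 RPM in jejunum. cfa-miR-210, the main miRNA induced by low oxygen, was read at 7.0 to 24.8 RPM in duodenum and at 22.5 to 32.2 RPM in jejunum, with a log2 fold change of -0.56 (SE 0.284, adjusted p = 0.375).

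The proliferation list (the miR-17 to miR-92 cluster and its relatives) had 2 of 14 tested names above 0 and 12 below it, with a median of -0.61 and 0 at an unadjusted p below 0.05. All 4 tested names of the X-linked miR-424 and miR-450 cluster were below 0, with cfa-miR-450b at 83.5, 71.7, 0.721, 0.778 and 2.10 RPM in duodenum and at 28.9 to 85.9 RPM in jejunum. The pancreatic miRNA cfa-miR-216a was at 0 to 2.17 RPM in duodenum and at 2.98 to 9.64 RPM in jejunum, all of them near the limit of detection and below the filter.

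The remaining lists gave smaller or mixed differences. Log2 fold changes were above 0 for 7 of 8 tested names of the miR-23, miR-24 and miR-27 family (median 0.46), for 1 of 4 of the miR-29 family (median -0.30), for 2 of 3 of the miR-221 and miR-222 pair (median 0.016), for 0 of 2 of the miR-34 and miR-449 family (median -0.55) and for 0 of 3 of the miR-147 and miR-31 list (median -0.39). None of these names had an unadjusted p below 0.05 by edgeR. Among the cell type lists, 4 of 4 erythroid names were above 0 with 2 at an unadjusted p below 0.05 (background 13.3%), 2 of 2 endothelial names with 1, 3 of 5 neural names with 2, 1 of 5 fibroblast names with 0, 2 of 4 striated muscle names with 0 and 3 of 3 names of the miR-183 cluster with 0. Of 7 tested reference miRNAs, such as miR-186 and miR-16, which are often used to scale other measurements, 3 were above 0 and 4 below (median -0.28).

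Neighbouring miRNA genes were then read side by side. By gene order in RefSeq (assembly UU_Cfam_GSD_1.0, used for names and neighbours only), 239 of 249 tested names matched a gene, and 30 groups of genes within 50 kb of each other held at least 2 tested names. In 15 of the 30 groups all names had the same sign. The 5 names of the miR-411, miR-380, miR-381, miR-889 and miR-410 group had log2 fold changes of 2.57 to 4.90, and the 4 names of the miR-143 and miR-145 group 0.39 to 1.75. At the other end, miR-215 and miR-194 had -1.21 and -1.06, and the 4 names of the miR-17, miR-18a, miR-19a and miR-20a group -1.22 to -0.48. Of 50 miRNAs with 2 names tested, mostly the arms of a precursor, 36 had the same sign in both, 15 above 0 and 21 below it.

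The spread within duodenum exceeded that within jejunum for most miRNAs. The SD of log2 CPM (counts scaled to the normalised library size) over the 5 libraries was larger in duodenum for 82.3% of the 249 tested miRNAs and larger in jejunum for 44 of them, with a median SD of 0.84 in duodenum and 0.43 in jejunum. It exceeded 2 for 28 miRNAs in duodenum and for 0 in jejunum. The largest SD in duodenum was that of cfa-miR-802 (4.05, against 0.35 in jejunum), followed by cfa-miR-411 (3.42 against 0.76), cfa-miR-381 (3.41 against 0.58), cfa-miR-486 (3.27 against 0.58) and cfa-miR-215 (3.14 against 0.68). The median width of the 95% interval of a log2 fold change was 1.92.

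**Figure D5:**
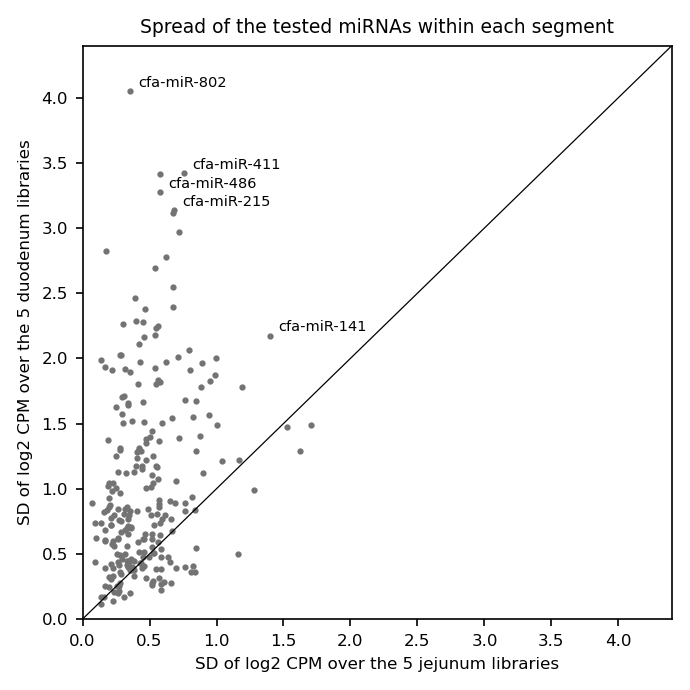
SD of log2 CPM over the 5 jejunum libraries (x axis) and over the 5 duodenum libraries (y axis) for the 249 tested miRNAs, with the line of equal SD. All but 44 lie above the line, and 28 have an SD above 2 in duodenum and 0 in jejunum.

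Some abundant miRNAs had a log2 fold change near 0 and an interval narrower than the median width, which does not mean equal levels in every library. Among the 40 most abundant miRNAs the narrowest interval was that of cfa-let-7f, at a mean of 14480 RPM in duodenum and 15729 RPM in jejunum (log2 fold change 0.18, 95% interval -0.28 to 0.64). cfa-miR-25 had a log2 fold change of 0.050 (95% interval -0.42 to 0.52), cfa-miR-22 one of 0.11 (-0.36 to 0.59) and cfa-let-7g one of 0.023 (-0.45 to 0.50). cfa-miR-378, which lies within the gene of the metabolic regulator PGC-1beta, was read at 10417 to 32823 RPM in duodenum and at 13457 to 38579 RPM in jejunum (log2 fold change -0.064, 95% interval -0.71 to 0.58). For these miRNAs the intervals leave room for differences of less than 2-fold in either direction, and a p that misses the threshold does not show that the segments are alike.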

How the data were processed

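miRNAs were sequenced in 10 duodenum and jejunum samples of beagle dogs, grouped by the tissue label. To make the deposited counts, the authors used 36 bp reads after clipping of adaptors and OSA v4 for alignment to CanFam3.1 (no mismatch, at most 10 locations), and counted a read where it covered at least 70% of a locus annotated from dog, rat or human miRNAs (miRBase 21). A miRNA absent from a sample's rows was given a count of 0. RPM was recomputed from the deposited counts and totals and differed from the authors' by at most 2.89e-09 (relative). Counts exceeded the deposited total by 0.0557% to 0.106% in each library. 1 sample name of the table was not assigned and not used. Identical libraries were looked for: no replicate pair agreed within sampling noise (lowest chi-square per degree of freedom 62.0 over 20 pairs).

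The main test was the quasi-likelihood test of edgeR 4.0.16 on the counts of the 10 libraries, after filterByExpr and with TMM factors, and Benjamini-Hochberg adjustment over 249 miRNAs. It was first tested on simulated counts. DESeq2 1.42.0, limma 3.58.1 and an exact rank-sum test were alternatives. These ran in R 4.3.3, and tables were made in Python 3.11.15 (pandas 2.3.3, numpy 2.4.6, scipy 1.17.1), with figures by matplotlib 3.10.9. The p-values measure the spread between these samples, and samples of the same dog in both segments were treated as independent. The comparison, the lists and the rule for names were chosen with earlier results of these data known. Named were the 10 miRNAs with the lowest p in each direction, the 10 most abundant, members of cell type and family lists of at least 100 RPM, and those the text marks as chosen after their values were seen. Mature sequences were not used here.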

Additional observations from a re-analysis of the deposited data

Results flagged for a closer look

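In groups of 5 libraries, 8 of 108 groups had a highest or lowest library whose gap to the next, as a share of the range, exceeded 0.71. This cut marks about 1 group in 20 where values are independent and normally distributed. RPM of miRNAs named from these data need not be so, and the count of 8 cannot be judged against that rate. cfa-miR-141, a member of the miR-200 family, stood out in duodenum replicate 2 (18021 RPM, the other 4 at 173 to 3574 RPM) and in jejunum replicate 2 (21926 RPM, the other 4 at 3015 to 5608 RPM). Its partner cfa-miR-200c stood at 1150 and 1168 RPM in these 2 libraries, near the others. In duodenum, cfa-miR-451 was highest in replicate 5 (5842 RPM) and hsa-miR-130b-5p in replicate 1 (40.6 RPM). In jejunum, cfa-miR-199 (5805 RPM) and cfa-miR-454 (36.5 RPM) were highest in replicate 4, hsa-miR-148b-5p was highest in replicate 3 (63.5 RPM), and cfa-miR-380 was lowest in replicate 2 (3.97 RPM).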

How the results depend on the processing

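No paired analysis was possible because the labels give no dog number and the replicate numbers follow accession order only. Counts at an adjusted p of 0.05 (higher in duodenum, higher in jejunum) were 25 (24, 1) by DESeq2, 22 (21, 1) over 4 intestinal tissues, 36 (35, 1) over all tissues, 32 (18, 14) by limma-voom with sample weights and 0 to 25 (0 to 24, 0 to 1) when each library was left out in turn. RLE size factors, deposited totals, no filter (537 miRNAs), 10 RPM in 5 libraries (232 miRNAs), the exact rank-sum test (6 at an unadjusted p below 0.05), thinning to 443337 reads and both settings added after seeing the data called 0. Why the counts differ was not tested. The mean correlation within jejunum was 0.961 over miRNAs of at least 10 RPM and 0.914 after thinning, and without duodenum replicates 3, 4 and 5 it was 0.927 between the remaining duodenum pair and 0.936 between segments. 

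Of the fold changes of 52 named miRNAs under all settings, 974 kept their direction and side of the threshold, 116 kept the direction and passed it, and 52 turned. Without duodenum replicates 3, 4 and 5 the log2 fold changes that turned were, for cfa-miR-486, -0.24, cfa-miR-411 -0.60, cfa-miR-381 -0.93, cfa-miR-99a -0.11, cfa-miR-127 -0.56, cfa-miR-410 -0.24, cfa-miR-380 -0.32, cfa-miR-10b -0.021, cfa-miR-192 0.0083, cfa-miR-143 -0.39, cfa-miR-215 0.018, cfa-miR-26a -0.017, cfa-miR-21 0.14, cfa-miR-191 -0.25, cfa-miR-194 0.14, cfa-miR-141 0.40, cfa-miR-429 0.0034, cfa-miR-203 0.21, cfa-miR-31 0.28, cfa-miR-145 -0.57, cfa-miR-133a -0.39, cfa-miR-142 0.15, cfa-miR-199 0.032, cfa-miR-125b -0.13, cfa-miR-99b -0.31, cfa-miR-125a -0.21, cfa-miR-889 -0.53, cfa-miR-193a -1.44, cfa-miR-365 -0.22, cfa-miR-802 0.26 and cfa-miR-146a 0.15. With the epithelial level as covariate they were, for cfa-miR-143, -0.15, cfa-miR-21 0.036, cfa-miR-141 0.47, cfa-miR-200c 0.23, cfa-miR-429 0.27, cfa-miR-203 0.096, cfa-miR-31 0.48, cfa-miR-145 -0.43, cfa-miR-133a -0.41, cfa-miR-125a -0.044, cfa-miR-802 0.040 and cfa-miR-146a 0.32. Of these, cfa-miR-141, cfa-miR-200c and cfa-miR-429 are themselves part of the covariate. cfa-miR-378, near 0 throughout, turned to 0.013 by DESeq2 and by RLE, 0.098 over all tissues and ranged from -0.20 to 0.26 as each library was left out. cfa-miR-141 ranged from -2.43 to 0.54 as each was left out, the latter without jejunum replicate 2. cfa-miR-375 turned to -0.026 as a difference in mean log2 RPM, with 1 RPM added to each value. With 5 libraries a group, the median width of a 95% interval was 1.92 on the log2 scale.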
